A study of Mus musculus with 59 samples.

Results

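Nxf3, Cyct, Trap1a and Rec8 are 4 mouse genes whose transcripts belong to germ cells or to extraembryonic tissue, and they were read here in neurons that carry the ALS mutation SOD1_G93A. They are 4 of 27389 entries of the culture values, found by their names, and they were selected on their RPKM values, because these are higher in mutant than in wild-type neurons with either partner glia. That difference is therefore described and not tested. The study grew neurons and glia in sandwich co-cultures, in which each partner was either wild type or a SOD1_G93A mutant, and read the RNA of each partner after 3, 7 and 14 days. It also read whole spinal cord of SOD1_G93A mutant and wild-type mice at 4, 8, 12 and 17 weeks of age, taking 1 female and 1 male for every genotype and age.

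Of the 20 neuron libraries, 9 are from mutant neurons (6 with mutant glia, 2 a day, and 3 with wild-type glia, 1 a day) and 11 from wild-type neurons (6 with mutant glia and 5 with wild-type glia, of which 1 at day 3). The 23 glia libraries are 12 from mutant and 11 from wild-type glia. The labels give neither the promoter of the transgene nor the cell lines or animals behind each genotype. A difference between genotypes thus cannot be told apart from a difference between the lines that the neurons came from. Replicates of a culture group may be technical.

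Germline genes are kept silent in most somatic cells by DNA methylation at CpG-rich promoters and by repressive complexes that contain E2F6, MGA and PCGF6. Many of them are read in cultured embryonic stem cells, from which the motor neurons of such co-cultures are commonly made. Nxf3 is an X-linked, testis-enriched relative of the messenger RNA export factor Nxf1. Cyct encodes the testis form of cytochrome c, the electron carrier of mitochondria. Trap1a, also X-linked, encodes the P1A tumour rejection antigen, read in testis, placenta and some tumours. Rec8 encodes the meiotic kleisin, the subunit that closes the cohesin ring in meiosis in place of Rad21.

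By the mm9 positions deposited with the spinal cord values, Nxf3 (ENSMUSG00000057000) is on chromosome X at 132606638 to 132619795 on the minus strand, and Trap1a (ENSMUSG00000051257) on the same chromosome at 135868222 to 135872709 on the plus strand. Cyct (ENSMUSG00000056436) is on chromosome 2 at 76191999 to 76198508 on the minus strand. Rec8 (ENSMUSG00000002324) is on chromosome 14 at 56236874 to 56244233 on the plus strand. The 250 bases before the start of 3 of the genes, from RefSeq on GRCm38.p6, are shown because silencing of germline genes acts at their promoters. They are written 5′ to 3′ on the gene's strand. Capitals mark TCCCGC, a core of E2F sites, on either strand.
Cyct promoter, chr2:76360454-76360703, minus strand: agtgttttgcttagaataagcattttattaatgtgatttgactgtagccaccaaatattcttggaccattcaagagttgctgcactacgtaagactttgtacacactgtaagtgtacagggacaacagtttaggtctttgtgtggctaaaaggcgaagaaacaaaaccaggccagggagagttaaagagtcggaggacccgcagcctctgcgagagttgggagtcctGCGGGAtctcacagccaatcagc
Trap1a promoter, chrX:139333433-139333682, plus strand: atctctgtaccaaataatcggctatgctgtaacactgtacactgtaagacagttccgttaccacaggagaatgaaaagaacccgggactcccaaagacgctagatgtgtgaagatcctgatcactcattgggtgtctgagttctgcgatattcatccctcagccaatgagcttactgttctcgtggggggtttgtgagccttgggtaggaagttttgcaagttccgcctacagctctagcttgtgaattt
Rec8 promoter, chr14:55617916-55618165, plus strand: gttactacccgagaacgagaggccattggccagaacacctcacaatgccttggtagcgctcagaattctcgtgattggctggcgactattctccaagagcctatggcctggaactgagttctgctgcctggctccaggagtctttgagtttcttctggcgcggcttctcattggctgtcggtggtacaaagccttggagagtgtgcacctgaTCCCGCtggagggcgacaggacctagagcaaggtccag

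TCCCGC lies 38 to 33 bases before the start of Rec8. In Cyct its reverse complement lies 23 to 18 bases before the start, and Trap1a has no match. Of 32851 RefSeq promoters of this length, 16.9% hold TCCCGC on either strand. The E-box CACGTG, the site of MGA and MAX, and the GC box GGGCGG match in none of the 3, against 6.02% and 32.7% of all promoters. The Cyct, Trap1a and Rec8 windows hold 6, 7 and 10 CG dinucleotides, beside a median of 6 over all promoters (quartiles 2 and 16). Of 84 other germline genes with a promoter listed, 20 hold CACGTG, 13 TCCCGC and 29 GGGCGG. These matches describe letters in a window, and binding and methylation were not measured.

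Values are deposited RPKM, reads scaled by the length of the gene and the size of the library, and every culture value could be traced back to a whole number of reads. Reads on genes came to 6.38 to 29.3 M per neuron library (median 12.4 M), 3.13 to 22.0 M in glia and 9.71 to 49.1 M in spinal cord. The day 3 replicate 1 libraries stand apart: their median-of-ratios scaling factors were 1.44 to 1.67 in neurons and 1.54 to 2.22 in glia, against 0.815 to 0.964 and 0.854 to 0.947 in the others. Results that touch them are given with and without them. Neuron libraries held neuronal transcripts, with 10 markers summing to 911 to 9020 RPKM in mutant and 744 to 18300 in wild-type neurons, beside 64.3 to 486 in glia. All 8 motor neuron markers (among them Mnx1, Isl1 and Chat) were above 0 in every neuron library. Mouse Sod1, which does not report the human transgene, had medians of 186 RPKM in mutant and 148 in wild-type neurons.

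Nxf3 was at or near 0 in wild-type neurons and clearly read in every mutant neuron library. With mutant glia, mutant neurons held 12.75 and 7.54 RPKM at day 3, 2.73 and 6.21 at day 7, and 3.13 and 2.01 at day 14 (replicates 1 and 2). Wild-type neurons with the same glia held 0.212 and 0, then 0.0143 and 0.0147, then 0.0429 and 0.0990. With wild-type glia, mutant neurons held 12.39, 6.50 and 1.47 at days 3, 7 and 14, and the wild-type neuron libraries lay between 0 and 0.475. The groups did not overlap: the lowest mutant value, 1.468, was above the highest wild-type value. In reads these values are 45 to 673 in mutant and 0 to 8 in wild-type neurons. Set beside the wild-type library of the same glia, day and replicate number, the mutant library was higher in 9 of 9 cases. Such counts, here and below, restate the choice of the genes, and the share of all genes that reach them was not worked out. Same-numbered libraries may not be pairs. The ratio of the mutant to the wild-type library was 60.1 at day 3 with mutant glia, replicate 1, and 20.3 at day 14, replicate 2. At day 3, replicate 2, 673 reads stood against 0, which is at least 279-fold higher when the wild-type library is set to the 3 reads that a count of 0 allows.

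Cyct, the testis cytochrome c, followed the same order at a lower depth. With mutant glia, mutant neurons held 19.84 and 2.66 RPKM at day 3, 5.51 and 4.57 at day 7, and 1.87 and 6.70 at day 14. Wild-type neurons held 3.64 and 0.124, 0.391 and 0.134, and 0 and 0.452. With wild-type glia, mutant neurons held 17.31, 2.85 and 3.28 at days 3, 7 and 14, and wild-type neurons 3.26 at day 3, 0.206 and 0.0799 at day 7, and 0.128 and 0.228 at day 14. The values overlapped only through day 3 replicate 1, where wild-type neurons were at their highest. In 9 of 9 cases the mutant library was above the wild-type library set beside it, by 5.46-fold at day 3, replicate 1, and 14.1-fold at day 7, replicate 1, with mutant glia. Since Cyct is short (655 bases), these values rest on 12 to 79 reads in mutant and 0 to 15 in wild-type neurons.

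Trap1a had the widest spread over wild-type neurons. With mutant glia, mutant neurons held 41.55 and 4.49 RPKM at day 3, 13.1 and 11.24 at day 7, and 10.96 and 21.27 at day 14. Wild-type neurons held 25.71 and 0.343, 1.12 and 1.08, and 1.42 and 2.64. With wild-type glia, mutant neurons held 37.16, 8.49 and 9.93, and wild-type neurons 26.68 at day 3, 1.18 and 0.665 at day 7, and 1.35 and 2.40 at day 14. Both wild-type libraries of day 3 replicate 1 were above all but 2 of the mutant values. There the mutant libraries stood 1.62-fold and 1.39-fold above them, while the ratio was 13.1 at day 3, replicate 2, and between 7.35 and 12.8 at days 7 and 14. The mutant library was the higher in 9 of 9 cases, with 120 to 446 reads against 13 to 191.

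Rec8 differs from the other genes in being well read in wild-type neurons too. With mutant glia, mutant neurons held 40.01 and 17.04 RPKM at day 3, 16.74 and 20.88 at day 7, and 20.21 and 20.66 at day 14. Wild-type neurons held 20.23 and 6.83, 9.54 and 6.84, and 7.43 and 8.86. With wild-type glia, mutant neurons held 42.49, 18.47 and 28.25, and wild-type neurons 19.03 at day 3, 7.89 and 6.85 at day 7, and 6.61 and 7.91 at day 14. Outside day 3 replicate 1 all 7 mutant values lay above all 9 wild-type values. The mutant library was higher in 9 of 9 cases, by 1.75-fold to 4.27-fold. Read numbers were 408 to 1045 in mutant and 119 to 520 in wild-type neurons.

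**Figure D1:**
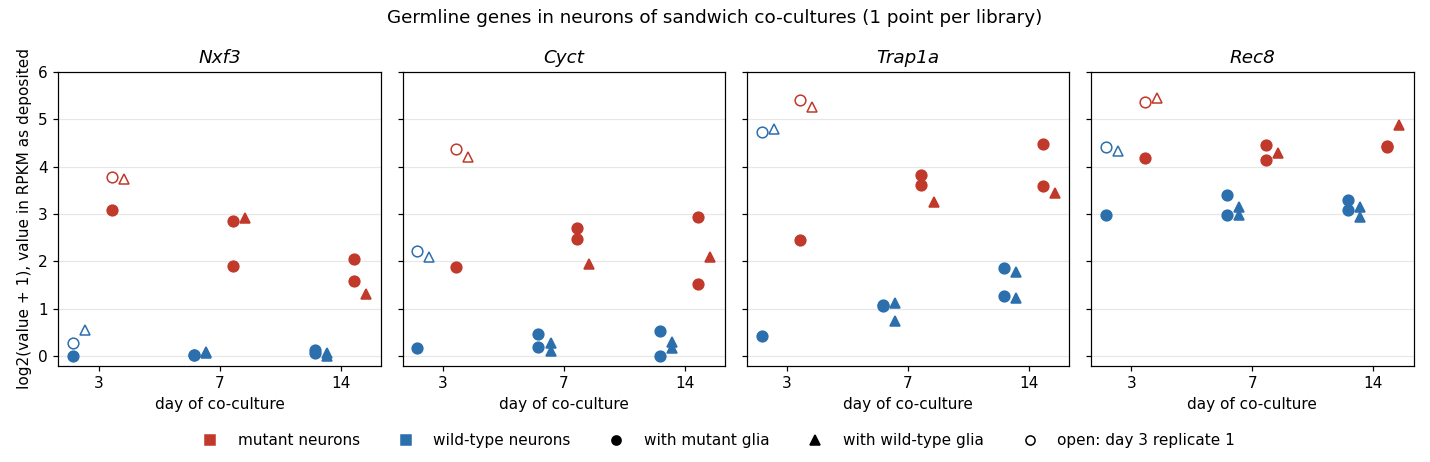
Values of Nxf3, Cyct, Trap1a and Rec8 in the 20 neuron libraries, as log2 of the RPKM value plus 1, against the day of co-culture; each point is 1 library, red for mutant and blue for wild-type neurons, circles with mutant and triangles with wild-type glia, open for day 3 replicate 1. Nxf3 lies between 1.468 and 12.75 RPKM in mutant and between 0 and 0.475 in wild-type neurons, while Trap1a in wild-type neurons reaches 26.68 in the open symbols.

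As deposited, 9 of 9 mutant libraries were above every wild-type library for Nxf3, 5 for Cyct, 2 for Trap1a and 5 for Rec8. Of 15065 genes tested, 0.0133% had no overlap in that direction. With values rescaled by median-of-ratios factors the numbers were 9, 8, 3 and 9 of 9 (0.168% of genes without overlap). Without day 3 replicate 1 all 4 genes had 7 of 7 mutant libraries above all wild-type ones (0.392% of genes). In a model over all neuron libraries (limma on log2 of the value plus 1, averaged over days), the log2 difference with mutant glia was 2.46 for Nxf3 (SE 0.19), 2.05 for Cyct (SE 0.423), 2.15 for Trap1a (SE 0.619) and 1.14 for Rec8 (SE 0.261). With wild-type glia it was 2.43 (SE 0.245), 1.91 (SE 0.547), 1.58 (SE 0.799) and 1.39 (SE 0.337). The 2 contrasts share no library, but both were used to pick the genes. In bulk libraries, more cells that read a gene and more of its RNA per cell cannot be told apart.

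The partner glia, mutant or wild type, had no effect that passed the test on the genes that could be tested. The genes were picked for a rise with either glia in these same libraries, so small partner effects are partly set by that choice. In mutant neurons the log2 difference between mutant and wild-type partner glia was -0.107 for Nxf3 (SE 0.233), -0.096 for Cyct (SE 0.519), -0.0905 for Trap1a (SE 0.758) and -0.37 for Rec8 (SE 0.32). In wild-type neurons it was -0.242 for Cyct (SE 0.457), -0.667 for Trap1a (SE 0.669) and -0.122 for Rec8 (SE 0.282), while Nxf3, below 1 RPKM in every wild-type neuron library, has no test there. All 7 adjusted p-values were 1 (limma, Benjamini-Hochberg over 15065 genes). The same comparisons called 0 genes in all (0%), with 63 and 90 genes at an unadjusted p under 0.05. Mutant neurons with wild-type glia have 1 library a day, which the model takes to vary like the others, and the standard errors of Cyct and Trap1a leave room for sizeable differences.

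Over time, Nxf3 fell in mutant neurons. The change from day 3 to day 14, averaged over both glia, was -2.03 on the log2 scale (SE 0.285, limma adjusted p = 0.000263), in a comparison where 24.8% of genes passed as lower (3734, against 1338 higher) and the median gene was at -0.392. With rescaled values the median gene was at -0.00987, 3211 genes (21.6%) passed as lower and 3272 as higher, and Nxf3 was at -1.64 (adjusted p = 0.000278). With mutant glia alone and without day 3 replicate 1 it was -1.28 (adjusted p = 0.0199, 13.8% of genes lower), where day 3 has 1 library, taken to vary like the others. Changes of the other genes did not pass: -1.5 for Cyct (SE 0.635, adjusted p = 0.0836), -0.855 for Trap1a (SE 0.928, adjusted p = 0.486) and -0.458 for Rec8 (SE 0.392, adjusted p = 0.372). With mutant glia alone and without day 3 replicate 1, which changes both choices at once and again leaves 1 library at day 3, Cyct stood at 0.359, Rec8 at 0.248 and Trap1a at 1.57 (adjusted p = 0.0147, 21.4% of genes higher). Leaving out 1 library at a time, where its group had another or was not compared, gave -2.12 to -0.869, -0.754 to -0.162 and -1.59 to -0.116 for these genes in turn. Without the day 3, replicate 2 library of mutant neurons with mutant glia, the fall of Cyct passed at -2.12 (adjusted p = 0.00561). All 10 neuron markers and 7 of 8 motor neuron markers fell between the same days, as did 13 of 35 other germline genes (10 of 28 with rescaled values), and the part of cell makeup in the fall of Nxf3 was not tested.

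The difference between genotypes was next compared between day 3 and day 14, and the change of none of the 4 genes passed. This interaction was -1.75 for Nxf3 (SE 0.386), -0.108 for Cyct, 1.3 for Trap1a and 0.433 for Rec8, each with an adjusted p of 1 (limma). Nxf3, at most 0.475 RPKM in wild-type neurons, passed the filter through mutant neurons alone. Its value thus mostly restates the fall in mutant neurons. In this comparison 0 of 15065 genes passed (0%), with 312 genes at an unadjusted p under 0.05.

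Pluripotency genes were read together with the 4 genes in some libraries. Summed over 15 of them (among them Pou5f1, Nanog and Dppa5a), day 3 replicate 1 held 194 to 368 RPKM in mutant and 246 to 306 in wild-type neurons. All 15 were at 1 RPKM or more in the 2 wild-type libraries. At day 7 the sum was 23.9 to 70.8 in mutant and 7.0 to 11.3 in wild-type neurons, so mutant neurons were higher without overlap. At day 3, replicate 2, it was 8.29 in mutant and 11.0 in wild-type neurons, and at day 14 it was 5.63 to 12.5 against 9.62 to 18.1. The ranges of day 14 overlapped, and with wild-type glia, replicate 1, the sum was 12.5 in mutant beside 9.62 in wild-type neurons. In the libraries of day 3, replicate 2, and of day 14, only 1 to 4 of the 15 genes reached 1 RPKM. Glia outside day 3 replicate 1 also had 1 such gene and summed to 3.54 to 14.3, so low sums are not particular to pluripotent cells. At day 14 with wild-type glia, replicate 1, Pou5f1 and Nanog were at 0.794 and 1.29 in mutant beside 0.062 and 0.369 in wild-type neurons. The wild-type library of replicate 2 with the same glia held 0.772 and 1.64. In each mutant library of day 3, replicate 2, day 7 and day 14, Nxf3, Cyct, Trap1a and Rec8 were higher than in every wild-type library outside day 3 replicate 1. Wild-type neurons of day 3 replicate 1, with sums of 246 and 306, held 25.71 to 26.68 RPKM of Trap1a but at most 0.475 of Nxf3. The part of residual pluripotent cells in the differences between genotypes was not tested at any day.

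**Figure D2:**
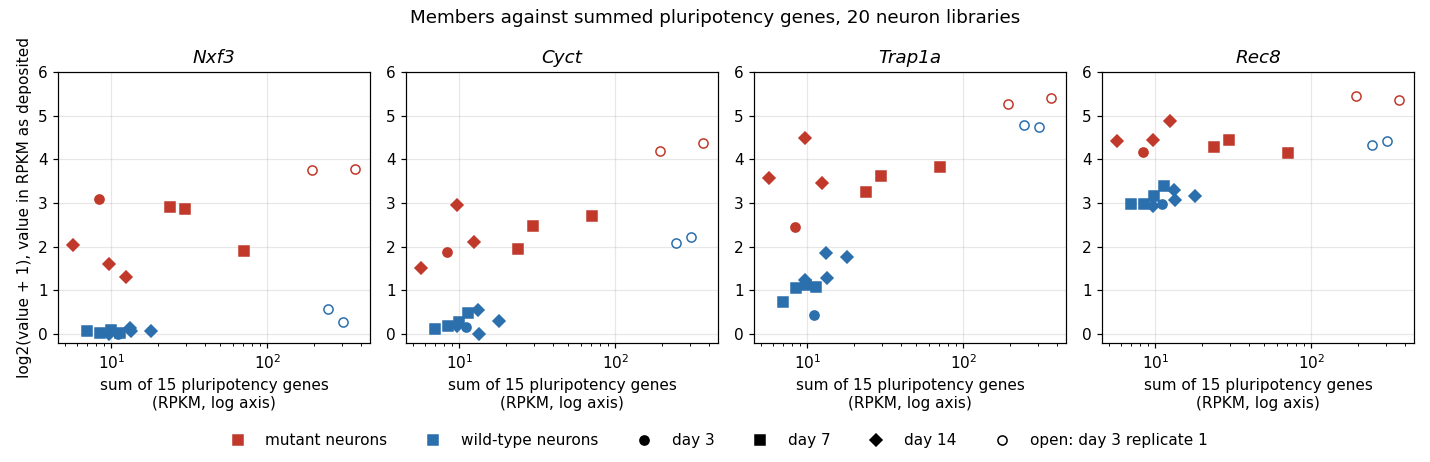
Each of the 4 genes (log2 of the RPKM value plus 1) against the summed RPKM of 15 pluripotency genes on a log axis, 1 point per neuron library; red mutant, blue wild type, circles day 3, squares day 7, diamonds day 14, open symbols day 3 replicate 1. At day 14 the sums of both genotypes lie between 5.63 and 18.1, with at most 4 of the 15 genes at 1 RPKM or more in a library. The mutant libraries of that day lie above the wild-type ones in all 4 panels.

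Over all days together, sums of markers of other cells overlapped between the neuronal genotypes. The astrocyte sum (8 markers) was 22.0 to 393 RPKM in mutant and 18.9 to 246 in wild-type neurons, with at most 1 marker at 0 in a library. By day it was 252 to 393 in mutant against 215 to 246 at day 14, and 129 to 143 against 45.2 to 51.0 in day 3 replicate 1. At day 7 the sums overlapped, at 45.5 to 166 and 40.7 to 68.8. Gfap, the astrocyte filament, had medians of 19.3 and 4.59 and did not pass (limma adjusted p = 0.806 with mutant and 1 with wild-type glia). At day 14 it was at 59.6 to 133 against 15.8 to 24.8. With the replicate number as a block and rescaled values, Gfap passed with mutant glia (1.58, limma adjusted p = 0.0182). Aldh1l1, another astrocyte marker, passed there too (1.08, limma adjusted p = 0.0394), and Slc1a2 did not. Of the fibroblast and vessel markers, Col1a1 passed there as lower (-0.857, limma adjusted p = 0.0331), and Dcn and Pdgfrb did not. None of these astrocyte, fibroblast and vessel markers passed with wild-type glia. Of the neurofilament subunits, Nefm had medians of 417 and 1050 and Nefl of 2270 and 907, and the 10 neuron markers summed to medians of 4950 and 4200. In the same block fit Nefm passed as lower with mutant glia (-1.5, limma adjusted p = 0.00827), and Nefl did not pass. Microglial sums were 74.3 to 644 and 67.0 to 1640 (medians 458 and 457). Xist, the X-inactivation RNA, had medians of 1.3 and 1.88, and the Y-linked Eif2s3y of 0.741 and 0.901, but both varied within each genotype. At day 7, replicate 2, with wild-type glia, Xist and Eif2s3y were at 6.73 and 0 in mutant and 11.1 and 0.0295 in wild-type neurons. With mutant glia they were at 0.0494 and 2.43, and at 0.063 and 3.12. The part of sex was not tested. Glia themselves held at most 0.268 RPKM of Nxf3, 0.824 of Cyct, 1.12 of Trap1a and 4.41 of Rec8, all below the lowest mutant neuron value of the same gene. The part of cell makeup in the differences between neuronal genotypes was not tested.

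The other germline genes lay mostly at small positive differences between mutant and wild-type neurons. Of 104 genes in 6 lists, 99 were in the culture values and 35 were high enough to test. In each contrast 0 of 35 passed, where 0.0199% of all 15065 genes passed with mutant glia (3 genes) and 0.0133% with wild-type glia (2 genes), so that the 0 says nothing of the list. In each, 29 of 35 were above 0, with a median log2 difference of 0.201 with mutant and 0.106 with wild-type glia, against -0.0137 and -0.0146 over all genes. A gene can pass the filter through mutant neurons alone, as Usp26 did, with at most 2.57 RPKM in mutant and 0.385 in wild-type neurons. The filter may thus favour positive differences, and the lean of the lists was not tested. A fit with the replicate number as a block called some of these genes, as given below. The X-linked germline and placental genes had the highest list median, 0.485 and 0.393 over 7 tested genes. In that list, median values in mutant and wild-type neurons were 5.63 and 1.03 RPKM for the homeobox gene Rhox6, 3.55 and 0.507 for Rhox9, and 0.652 and 0.0126 for Usp26, a testis deubiquitinase. Among 13 tested genes of germline identity and transposon defence, Tex19.1, which protects germ cells from retrotransposons, had medians of 1.73 and 0.124, and Pld6, a piRNA-pathway nuclease of mitochondria, 1.55 and 0.708. Nanos3, which germ cell precursors need to survive, was at 1.63 and 1.16. All these medians include day 3 replicate 1, and the ranges of the named genes overlapped. Rhox6 ranged from 0.116 to 17.4 RPKM in mutant and from 0 to 10.8 in wild-type neurons. Tex19.1 ranged from 0.614 to 16.5 and from 0.0251 to 7.09.

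The meiotic partners of Rec8 and the genes of meiotic entry are among these 35. Stag3, the cohesin subunit that pairs with Rec8 in meiosis, had medians of 1.03 RPKM in mutant and 0.901 in wild-type neurons. Sgol2, which guards centromeric Rec8, was at 3.58 and 3.50, and Syce1 of the synaptonemal complex at 0.534 and 0.101. Of the recombination and entry genes, Psmc3ip was at 14.7 and 7.14, Stra8, the switch into meiosis, at 0.273 and 0.126, and Prdm9 at 1.08 and 1.26. Of the spermatid and sperm genes, 5 of 22 were high enough to test. Acr, the acrosomal protease, was at 0.816 and 0.296, the kinase Gsg2 at 2.5 and 1.58, and Tssk6 at 0.633 and 0.768. The 1 oocyte gene tested, Gdf9, was at 0.410 and 0.474. With day 3 replicate 1 included, Stra8 ranged from 0 to 18.4 RPKM in mutant and from 0 to 9.26 in wild-type neurons.

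**Figure D3:**
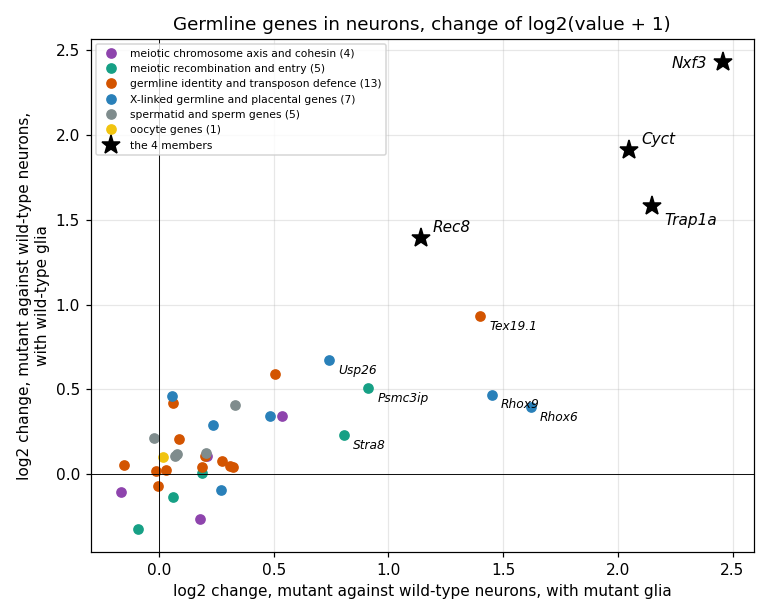
Difference of log2 of the RPKM value plus 1 between mutant and wild-type neurons, with mutant glia on the x axis and with wild-type glia on the y axis, for 35 germline genes (coloured by list) and for Nxf3, Cyct, Trap1a and Rec8 (stars). The stars were picked for this difference, with Nxf3 furthest out at 2.46 and 2.43 and Rec8 at 1.14 and 1.39. Tex19.1 is at 1.4 and 0.933 and Rhox6 at 1.62 and 0.393, both beyond Rec8 on the x axis.

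The somatic counterparts of the 4 genes had similar medians in both genotypes. Nxf1, the general mRNA exporter, had medians of 23.7 RPKM in mutant and 27.2 in wild-type neurons, and its cofactors Nxt1 and Nxt2 14.7 and 14.7, and 4.01 and 4.19. The mitotic kleisin Rad21 was at 54.0 and 53.0, and the cohesin subunits Smc1a and Smc3 at 25.2 and 26.9, and 22.2 and 20.7. Somatic cytochrome c, Cycs, was at 0.731 and 0.666, a value that is uncertain since it has near-identical copies. The cohesin regulators Pds5a and Pds5b were at 13.3 and 14.1, and 12.6 and 14.0, and Apaf1, the adaptor that cytochrome c binds in apoptosis, at 7.62 and 7.65. Of 18 genes of this list and of 21 silencing genes 0 passed in either contrast, in which 3 and 2 of all genes passed. The silencing genes had median log2 differences of 0.0216 and 0.0106. Among them Dnmt3l, the germline cofactor of DNA methylation, was at 2.54 and 0.206, Dnmt3b at 0.711 and 0.385, and Dnmt3a at 17.4 and 16.1. With day 3 replicate 1 included, Dnmt3l ranged from 0 to 30.7 RPKM in mutant and from 0.0337 to 13.8 in wild-type neurons.

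The genes next to the 4 on the chromosome were read as follows. Of the 3 nearest entries on each side of every gene, 24 in all, 16 were high enough to test, and 0 passed with mutant or with wild-type glia, beside 3 and 2 of all 15065 genes. Bex2, 3862 bases from Nxf3, had medians of 118 and 108 RPKM, and Rbm45, 9533 bases from Cyct, 14.4 and 14.6. Ipo4, on the other strand, lies 4 bases from the end of Rec8 and was at 31.9 and 32.3. Pde11a, on the other side of Cyct, was at 0.723 and 0.251. Platr21 overlaps Trap1a on the opposite strand, at 0.0341 and 0.0109, and whether counting used strand is not stated.

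Of the 4 genes, 3 were higher in wild-type neurons than in glia. These neurons had mutant or wild-type partner glia, and the glia were of both genotypes, so mutant cells enter the comparison. Rec8 was lower in mutant than in wild-type glia, which widens its difference. In cultures of wild-type neurons with wild-type glia, Rec8 was at 6.61 to 19.03 RPKM in neurons and 0.139 to 4.41 in glia. Trap1a was at 0.665 to 26.68 and 0 to 0.610 there, while Cyct overlapped, at 0.0799 to 3.26 and 0 to 0.824. Over all 43 culture libraries, wild-type neurons exceeded glia by a log2 difference of 2.68 for Rec8 (SE 0.135, limma adjusted p = 2.07e-15), 1.88 for Trap1a (SE 0.3, adjusted p = 5.67e-06) and 0.563 for Cyct (SE 0.208, adjusted p = 0.0209). In this comparison 34.1% of genes passed as higher, and its wild-type neuron libraries also served to pick the 4 genes. The call for Cyct rests on day 3: without those libraries it was 0.189 (adjusted p = 0.208), and without the wild-type neuron library of day 3, mutant glia, replicate 1, alone 0.392 (adjusted p = 0.0744). Nxf3 was below 1 RPKM in every wild-type neuron and glia library, with highest values of 0.475 in wild-type neurons and 0.268 in glia, and has no test here.

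In glia, Nxf3, Cyct and Trap1a were too low to test, with medians of 0.0331, 0 and 0.0800 RPKM, and Cyct was at 0 in 13 of 23 libraries. Rec8 could be tested, but it reached 1 RPKM only in wild-type glia, while no mutant glia library was above 0.706. It thus passed the filter through the group where it is high, which limits its p-values for glial genotype. Rec8 was lower in mutant than in wild-type glia, by most at day 7. At day 7 wild-type glia held 3.87 and 4.07 RPKM with mutant neurons and 3.31 and 4.41 with wild-type neurons, from 114 to 175 reads. Mutant glia held 0.193 and 0.295 with mutant and 0.0916 and 0.156 with wild-type neurons, from 4 to 14 reads. The groups of day 7 did not overlap, as was so in this direction for 6.78% of 14611 genes. At day 3 the values were 0.617, 0.706, 0.275 and 0.283 in mutant glia and 0.314, 0.350 and 0.139 in wild-type glia, and at day 14 they were 0.148, 0.237, 0 and 0.212 against 1.15, 0.513, 0.848 and 0.405. The groups thus overlapped at day 3 and did not at day 14 (2.96% of genes), where these values are 0 to 28 reads.

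**Figure D4:**
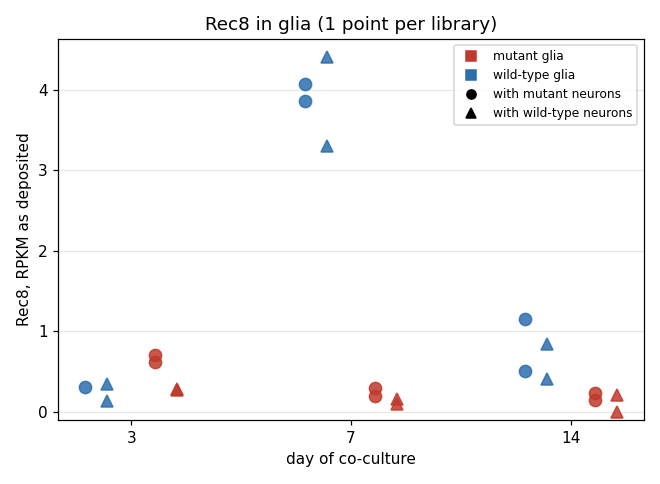
Rec8 in the 23 glia libraries (RPKM) by day of co-culture; red mutant and blue wild-type glia, circles with mutant and triangles with wild-type neurons, 1 point per library. The 4 wild-type libraries of day 7 lie at 3.31 to 4.41, and no mutant glia library is above 0.706.

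Averaged over days and partners, Rec8 was lower in mutant glia by a log2 difference of -0.811 (SE 0.108, limma adjusted p = 0.00227), where 0.0137% of 14611 genes, 2 in number, passed as lower. In the fit with the replicate number as a block 133 genes passed (108 lower, 0.739%), and 263 with rescaled values (226 lower, 1.58%), and Rec8 remained among them at -0.815 and -0.866. By day it was 0.192 at day 3 (adjusted p = 0.697), -2.05 at day 7 and -0.573 at day 14 (adjusted p = 1, and 0.0711 with the block and rescaled values). The effect of glial genotype differed between day 7 and day 3 by -2.24 (SE 0.27, adjusted p = 0.000939), and Rec8 was 1 of 7 genes that passed, all lower (0.0479%). This comparison was added after the values were seen, and in it too Rec8 passed the filter only through wild-type glia. Whether the partner neurons were mutant made no difference that passed (0.154, SE 0.108, adjusted p = 1, with 0% of genes called).

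Transcripts of the sex chromosomes moved with Rec8 at day 7. Wild-type glia of that day held 24.4 to 37.4 RPKM of Xist, the X-inactivation RNA, and 0 to 0.144 of the Y-linked Eif2s3y, while mutant glia held 0.0162 to 0.16 and 23.7 to 40.6. At day 14 the wild-type libraries of replicate 1 held 25.2 and 22.0 of Xist with 1.15 and 0.848 of Rec8, and those of replicate 2 held 0.0258 and 0.0124 with 0.513 and 0.405. Mutant libraries of day 14 held 12.9 and 14.1 of Xist in replicate 1 with 0.148 and 0 of Rec8, and 0.0708 and 0.0838 in replicate 2 with 0.237 and 0.212. The wild-type library of day 3 with 21.4 of Xist held 0.350 of Rec8. Fibroblast and vessel markers summed to 447 to 563 in wild-type and 280 to 359 in mutant glia of day 7, oligodendrocyte markers to 83.6 to 99.6 and 131 to 156. The part of the donors' sex and of cell makeup in the Rec8 difference was not tested. Neuron markers overlapped, at 86.6 to 142 in wild-type and 107 to 168 in mutant glia.

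In spinal cord Nxf3, Cyct and Trap1a were at or near 0. Nxf3 was at 0 in 11 of 16 libraries and at most 0.0316, and Trap1a was at 0 in 15 of 16 and at 0.0198 (1 read) in the other. Cyct was at 0 in 8 of 16, with the highest values in wild-type males of 12 weeks (0.431, 12 reads) and 17 weeks (0.350, 11 reads). Rec8 was read in every library, from 0.0351 to 3.05. In mutant cords it was 0.118 and 0.645 at 4 weeks (female, then male), 2.22 and 3.00 at 8 weeks, 0.228 and 0.726 at 12 weeks, and 0.0351 and 0.191 at 17 weeks. In wild-type cords it was 0.211 and 2.14, 0.392 and 1.74, 2.19 and 0.291, and 0.346 and 3.05. High and low libraries stand in both genotypes and both sexes, and values fall into a low set of 10 and a high set of 6 from 1.74 up. The log2 difference between genotypes was -0.299 (SE 0.217, limma adjusted p = 0.651), where 0.335% of 14645 genes passed as lower (49, against 486 higher, and 305 against 963 with rescaled values).

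**Figure D5:**
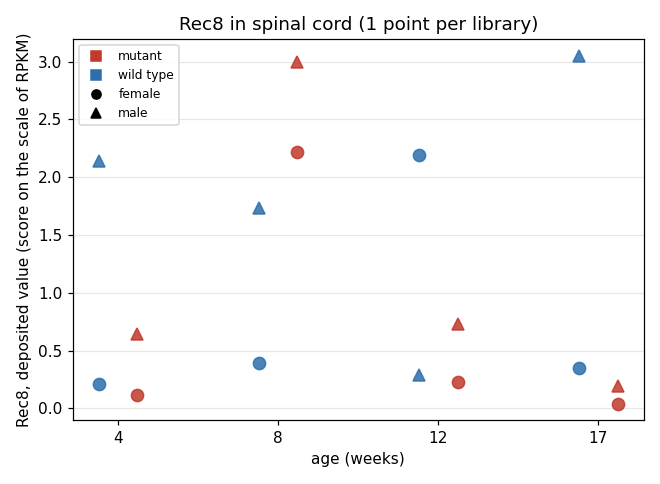
Rec8 in the 16 spinal cord libraries (deposited value, on the scale of RPKM) by age in weeks; red mutant, blue wild type, circles females, triangles males. Mutant cords of 8 weeks lie at 2.22 and 3.00 and all other mutant cords at or below 0.726, while wild-type cords lie between 0.211 and 3.05.

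Across the 43 culture libraries the 4 genes went together, with Pearson r from 0.691 (Nxf3 and Rec8) to 0.939 (Cyct and Trap1a). These libraries differ by cell, genotype and depth together, so r is a description. The 4 were picked for a shared difference between genotypes, which r over both genotypes restates. Within the 9 mutant neuron libraries r was 0.917 for Cyct and Trap1a and 0.372 for Nxf3 and Trap1a, and without day 3 replicate 1 (7 libraries) 0.69 and -0.659. In those 7 libraries Nxf3 was at -0.33 with Cyct and at -0.603 with Rec8. Most like Nxf3 over the 43 libraries were Thsd7b (r = 0.895), Usp26 (0.893), Cyct (0.88), Nmur2 (0.87) and Slc6a5 (0.86). Most like Cyct were Usp26 (0.95), Trap1a (0.939), uc007nyh.1 (0.929), uc007xin.1 (0.928) and Ldoc1 (0.925). Prdm8 (0.945), Cyct (0.939), Etaa1 (0.938), uc007icj.1 (0.927) and Krt8 (0.925) led for Trap1a. For Rec8 they were Hoxb2 (0.924), Capn11 (0.922), Hoxb4 (0.919), Eml5 (0.918) and Hoxb3 (0.915). Usp26 stands in the lists of both Nxf3 and Cyct and was not among the 4 genes.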

How the data were processed

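Values were taken from the deposited tables of 43 culture libraries (20 of neurons, 23 of glia) and 16 spinal cord libraries. Genome mm9 and the aligner Bowtie are listed in the submitters' processing notes, and per the labels' protocols some libraries may be Illumina and others Nextera preparations of total RNA. The counter and its use of strand are not given in the sources used here. The deposited culture values fit RPKM, and in all 22784 entries above 0 (100%) they came out as whole reads within 0.05 of a read. The deposited spinal cord values are treated as a score on the scale of RPKM, since 898 entries held values below 0 in some library, which were set to 0. Another 127 culture entries listed as NA were left out.

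The 4 genes, the gene lists and the comparisons were chosen with earlier results of these data known. Sample groups were taken from the labels. Values were used as log2(value + 1), keeping genes that reached 1 in 2 or more libraries, in limma 3.58.1 (lmFit, eBayes with trend) under R 4.3.3, with 1 mean for every group and Benjamini-Hochberg adjustment over all genes tested, at a threshold of 0.05. A fold change on this scale understates the change of low genes. The scripts, run with Python 3.11.15, pandas 2.3.3 and numpy 2.4.6, were tested on simulated data. Nothing says whether culture replicates were separate cultures, so the spread behind the p-values may be technical. Same-numbered glia libraries deviated together in 15 of 15 pairs (lowest correlation 0.228, median 0.706), and the pairing comes from that check. Alternatives were a pseudocount of 0.1, no filter on low values, median-of-ratios rescaling, voom on the whole reads, the replicate number as a block, each replicate left out, the day 3 replicate 1 libraries left out and, chosen after seeing the data, all day 3 libraries left out, glia by day, and mutant glia alone without day 3 replicate 1. The text names the 4 genes, their somatic counterparts and the 5 genes of highest correlation for every gene. It names the 3 genes of largest change in the germline, somatic and silencing lists. Of the cell type markers and of the 3 nearest entries on each side, only some are named. Promoters were matched to RefSeq by symbol for 3 of the 4 genes.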

Additional observations from a re-analysis of the deposited data

Results flagged for a closer look

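The effect of glial genotype on Rec8 differed between day 7 and day 3, by -2.24 on the log2 scale (limma interaction, adjusted p = 0.000939). Rec8 passed the filter only through wild-type glia, and the comparison was added after the values were seen. In every alternative run, among them leaving out each of 22 of the 23 glia libraries (all but the only day 3 library of wild-type glia with mutant neurons), the difference between days kept its sign and passed.

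In 27 groups of 4 or more libraries, 3 single values lay apart from the others of their group. How often chance does so was not worked out for counts near 0. In mutant glia of day 14, Nxf3 was at 0.268 RPKM with wild-type neurons in replicate 1, and Cyct at 0.181 with wild-type neurons in replicate 2. In mutant glia of day 7, Cyct was at 0.303 with mutant neurons in replicate 1. These are values of 3 or 4 reads. In both Cyct groups all the other libraries were at 0, and the Nxf3 value is from the glia library with the fewest reads (3.13 M).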

How the results depend on the processing

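Nxf3, Cyct, Trap1a and Rec8 stayed higher in mutant neurons in all settings and with either glia. Leaving out 1 library at a time gave log2 differences with mutant glia of 2.3 to 2.62, 1.64 to 2.47, 1.43 to 2.87 and 0.902 to 1.38. The numbers of all genes called moved more. Between neuron genotypes with mutant glia, 3 genes were called, and 8 with no filter, 19 rescaled, 12 with voom, 9 without day 3 replicate 1 and 8 without day 3 (2 to 18 with 1 library left out, 18 without the day 3 replicate 2 library of mutant neurons and 6 without that of wild-type neurons). With wild-type glia 2 were called, and 103 with no filter, 4 rescaled, 0 with voom and 4 without day 3 (2 to 2). Among the 9 mutant libraries, Cyct stood above every wild-type one in 8 and Rec8 in 9 after rescaling, and Trap1a in 7 of 7 without day 3 replicate 1 and 6 of 6 without day 3.

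The replicate number as a block raised the calls between neuron genotypes to 706 and, rescaled, 734 with mutant glia, and to 23 and 31 with wild-type glia. Same-numbered neuron libraries deviated together in 6 of 7 pairs (median correlation 0.556, lowest 0.0714). The labels do not say whether the numbers pair the cultures, so the block was kept as an alternative. Under the block with rescaled values 8 of 28 other germline genes passed as higher with mutant glia (Syce1, Psmc3ip, Stra8, Tex19.1, Pld6, Usp26, Rhox6 and Rhox9), beside 499 of 14881 genes in all (3.35%), and Tex19.1 with wild-type glia (25 of 14881, 0.168%). Of the silencing genes named above, Dnmt3l passed as higher with mutant glia in that fit (1.09, limma adjusted p = 0.0132), and Dnmt3b and Dnmt3a did not. The 3 pluripotency genes of largest change also passed as higher with mutant glia in that fit. They were Dppa5a (1.35, limma adjusted p = 0.0132), Utf1 (1.07, adjusted p = 0.0394) and L1td1 (0.83, adjusted p = 0.0165). With wild-type glia none of these pluripotency genes passed. The block turned the sign of small partner effects. In mutant neurons these were 0.0426 (rescaled 0.0612) for Nxf3, 0.13 (0.104) for Cyct and 0.368 (0.323) for Trap1a, and in wild-type neurons 0.137 (0.0861) for Cyct and 0.0965 (0.0526) for Rec8. The change of the genotype effect of Cyct from day 3 to day 14 became 0.0654 (0.126). No paired analysis was possible because replicate numbers lie within a day for mutant neurons at day 14 against day 3. In glia the block gave 133 calls and 263 rescaled for genotype, and 248 and 247 for day 7 against day 3. It changed no call of Nxf3, Cyct, Trap1a or Rec8.

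Other sign changes were in effects that did not pass. For partner glia in mutant neurons, Nxf3 was at 0.0348 with voom, Cyct at 0.00702 rescaled and 0.39 without day 3, and Trap1a at 0.0167 and 0.524, with ranges over left-out libraries of -0.265 to 0.051, -0.514 to 0.322 and -0.583 to 0.402. In wild-type neurons without day 3, Nxf3 was at 0.00253, Cyct at 0.0862, Trap1a at 0.104 and Rec8 at 0.135, and the ranges of Cyct, Trap1a and Rec8 were -0.583 to 0.0984, -1.39 to 0.0519 and -0.362 to 0.118. From day 3 to day 14, with mutant glia alone and without day 3 replicate 1, Cyct was at 0.359, Rec8 at 0.248 and Trap1a at 1.57. The genotype effect of Cyct over these days was 1.1 with a pseudocount of 0.1, 0.905 with voom and 0.258 with mutant glia alone (-0.736 to 0.519). Rec8 in glia was at 0.192 at day 3, and 0.152 rescaled with the block. Nxf3 in wild-type neurons against glia was at -0.0111 without day 3, and in both comparisons of wild-type neurons it was too low to read. The causes were not tested.

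With no filter on low values, 34 genes were called for partner glia in mutant neurons (1 without day 3), 77 in wild-type neurons, 73 for the genotype effect over days and 3 for partner neurons in glia, against 0 in each. Leaving out 1 library gave 0 to 0 for the partner effects, 0 to 5 for the genotype effect over days (5 without the day 3 replicate 2 library of wild-type neurons with mutant glia), 3838 to 6824 for mutant neurons over days and 9475 to 10385 for neurons against glia. Between glial genotypes, 2 genes were called, and 7 with a pseudocount of 0.1, 8 with no filter, 15 rescaled, 23 with voom, 4 without day 3 replicate 1 and 54 without day 3 (2 to 5, with 4 and 5 without a wild-type library of day 14 replicate 2). By day they were 0, 33 and 1, and 5, 726 and 176 rescaled with the block. For day 7 against day 3, 7 were called, and 11 with a pseudocount of 0.1, 30 rescaled, 49 with voom and 11 without day 3 replicate 1 (1 to 33, with 33 and 16 without a day 3 replicate 2 library of mutant glia and 23 without the day 3 replicate 1 library of wild-type glia). In spinal cord 535 were called, and 1268 rescaled and 1414 with voom (370 to 708). Depth limits Nxf3 and Cyct in wild-type neurons, glia and spinal cord, where values rest on 15 reads or fewer.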
